A study of Mus musculus with 24 samples.

Results

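Acot1 and Cpt1a, a pair of genes of fatty acid use known as targets of the nuclear receptor PPAR alpha, were followed in the left ventricle of mice after a sham surgery. They are 2 of the 63758 transcripts counted, chosen by their identifiers, uc007oeb.1 for Acot1 and uc008fwf.2 for Cpt1a, over all 24 mice. The mice were male, of the strain C57BL/6 (C57BL/6J in the study's methods), aged 8 to 12 weeks, and carried no genetic change. In all of them the chest was opened on the left side under pentobarbital with buprenorphine, and a suture was passed around the left anterior descending coronary artery but never tied, so that the artery was not closed in any mouse, and no mouse was left without surgery. The suture was removed at once in the 0 min group or after 45 min in the 45 min group, and in the 24 h group the chest was closed after 45 min and the mice lived on for 24 h. Each group held 8 mice with 1 sample each, and the mice had free access to food. Food intake after the surgery is not given in the sources used here.

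In a heart muscle cell, fatty acids are the main fuel. Cpt1a encodes carnitine palmitoyltransferase 1A, the enzyme of the outer mitochondrial membrane that joins long-chain fatty acids to carnitine so that they can enter the mitochondrion for beta oxidation. It is the form best known from liver, and the adult heart also holds the muscle form Cpt1b, which was not analysed here. Acot1 encodes a cytosolic acyl-CoA thioesterase, which splits fatty acyl-CoA into free fatty acid and coenzyme A. Both genes are known to be raised by fasting, when fatty acids leave the fat tissue and activate PPAR alpha.

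Acot1 lies on chromosome 12 of GRCm38 from 84009490 to 84018371, on the plus strand, and Cpt1a on chromosome 19 from 3322334 to 3385733, also on the plus strand, by the GENCODE M21 annotation. Acot2, the mitochondrial sister of Acot1, ends 15616 bases before it on the same strand. Of the 1236 aligned coding bases of their GENCODE transcripts, 95.6% were identical, and the longest run without a difference was 273 bases. The stretch below is shown because it is where that run ends in exon 3, at chr12:84017239-84017318 in Acot1 and chr12:83992961-83993040 in Acot2. It holds 40 bases on each side of the end of the run, and capitals mark the 5 bases that differ.

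Acot1 coding stretch: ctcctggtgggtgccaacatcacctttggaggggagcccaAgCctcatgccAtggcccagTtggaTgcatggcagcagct
Acot2 coding stretch: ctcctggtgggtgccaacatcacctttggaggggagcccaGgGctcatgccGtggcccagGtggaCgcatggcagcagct

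A read that falls within the identical run cannot tell both genes apart. Reads of 76 bases were sequenced, and of the 2197 windows of that length in the 2272 bases of the Acot1 transcript, 1620 (73.7%) were found in no other gene's transcripts, 431 (19.6%) also in Acot2 and the others in Acot3, Acot4, Acot5 or Acot6. All 4242 windows in the 4317 bases of the full-length Cpt1a transcript were found in Cpt1a alone. The counts of Acot1 are therefore uncertain where the counting could have split or dropped shared reads.

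The sequences before the start sites of both genes are shown because the genes share a known regulator and were read here together. Each holds the 250 bases before the start in RefSeq (GRCm38.p6), at chr12:84009252-84009501 for Acot1 and chr19:3323051-3323300 for Cpt1a. The last bases of the Acot1 window overlap the gene as GENCODE gives it. GENCODE starts Cpt1a earlier, at 3322334, so the whole Cpt1a window lies within that gene, and an exon of Cpt1a-201 overlaps it. Capitals mark matches on either strand to CCAAT, to the GC box GGGCGG and to AGGTCA, the half-site that PPAR alpha and its partner RXR read as a direct repeat.

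Acot1 upstream: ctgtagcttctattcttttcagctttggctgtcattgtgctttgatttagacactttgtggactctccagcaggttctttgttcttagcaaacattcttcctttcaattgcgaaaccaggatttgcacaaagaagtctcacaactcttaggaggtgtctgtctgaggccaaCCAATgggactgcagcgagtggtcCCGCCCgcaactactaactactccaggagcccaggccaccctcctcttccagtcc
Cpt1a upstream: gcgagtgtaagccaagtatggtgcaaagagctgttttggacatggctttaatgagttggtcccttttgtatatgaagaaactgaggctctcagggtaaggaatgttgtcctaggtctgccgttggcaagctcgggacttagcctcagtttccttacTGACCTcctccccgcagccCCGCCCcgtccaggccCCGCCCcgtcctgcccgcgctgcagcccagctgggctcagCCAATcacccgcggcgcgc

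Acot1 had a CCAAT 79 bases and a GC box 55 bases before the start. Cpt1a had a CCAAT at 19 bases, GC boxes at 59 and 75 bases, and 1 half-site at 94 bases, which reads TGACCT on the strand shown. Over the 32851 windows of the same length, 33.8% held CCAAT, 32.7% the GC box and 14.0% the half-site. The direct repeat, AGGTCA again after 1 base of any kind, was in neither window and in 0.0335% of all windows, which says only that these letters are not in these bases.

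The libraries held between 9887957 and 14091629 counts each, in which between 12972 and 18865 transcripts had at least 1 count, and 8940 transcripts passed the filter on low counts and were tested. Both genes passed it. The transcript uc012ath.2 held from 0.997% to 35.2% of the counts of a library, with the most in replicate 1 at 45 min. Its share was 20.9% in replicate 2 at 0 min. At 24 h it was 17.8% in replicate 1 and 20.5% in replicate 2. The 5 libraries with the fewest transcripts detected were replicates 6, 7 and 8 at 45 min and replicates 5 and 7 at 0 min, and at 24 h the lowest was replicate 4. Among the genes with a symbol, the summed level of 6 of 8 markers of heart muscle cells ran from 16026 to 23558 CPM at 0 min and from 6479 to 11368 CPM at 24 h, without overlap. Most of this sum was Actc1, which averaged 14854 CPM at 0 min and 5717 CPM at 24 h. All 6 markers tested had a negative log2 fold change at 24 h against 0 min. Of these, 3 passed the threshold (adjusted p under 0.05 by edgeR), where 3.24% of all transcripts fell. Actn2 (-0.20), Hrc (-0.39) and Lrrc10 (-0.85) did not pass it. The summed level of 5 of 8 neutrophil markers ran from 1.41 to 7.92 CPM at 0 min and from 7.67 to 55.2 CPM at 24 h. Most of this sum was Mmp9, which averaged 2.43 CPM at 0 min and 17.3 CPM at 24 h. The summed level of 6 of 8 macrophage markers ran from 63.7 to 97.2 CPM at 0 min and from 120 to 256 CPM at 24 h. Neutrophils and macrophages are white blood cells that enter injured tissue. That of 5 of 7 fibroblast markers ran from 461 to 767 CPM at 0 min (median 566) and from 417 to 1316 CPM at 24 h (median 1019). Its members went both ways by 24 h. Col3a1 (log2 fold change 0.75) and Col5a2 (0.72) rose past the threshold, while Fmod (-1.64) and Col14a1 (-0.81) fell past it. Col1a2 (0.47) did not pass it. The summed level of 4 of 7 markers of the endothelium ran from 128 to 186 CPM at 0 min (median 173) and from 114 to 153 CPM at 24 h (median 143). Of these only Aplnr fell (log2 fold change -1.09), while Selp (4.05) and Clec14a (0.42) rose, each past the threshold. S1pr1 (0.09) did not pass it. For markers of fat cells, the 2 of 8 with a row, Plin4 and Thrsp, both also in the lists of fatty acid genes, gave 35.7 to 54.4 CPM at 0 min and 38.6 to 66.8 CPM at 24 h. They went opposite ways by 24 h. Plin4 (log2 fold change 0.61) rose past the threshold, and Thrsp (-0.74) did not pass it. The study gave these symbols only to transcripts it had listed as changing over time, and defining markers such as Myh6, Tnnt2 and Adipoq were not analysed here. The part of these shifts in the results was not tested, and in whole myocardium fewer cells of a type and less RNA per cell cannot be told apart.

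Acot1 was a low transcript in every mouse at 0 min and 45 min. At 0 min its normalized count (CPM, the count scaled to the library total with a TMM factor) was 1.36, 1.50, 1.93, 1.74, 2.64, 1.56, 0.878 and 2.11 in replicates 1 to 8. At 45 min it was 1.49, 1.14, 0.959, 1.19, 0.982, 1.14, 0.834 and 2.46, so that 7 of the 8 mice lay within 0.834 and 1.49 CPM and replicate 8 stood higher. These levels rest on 8 to 27 counts, and counting error alone leaves 0.402 to 1.67 CPM for the lowest mouse at 0 min (exact Poisson interval, 95%).

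At 24 h the mice spread apart. Acot1 was at 6.23, 3.61, 1.79, 1.12, 3.17, 7.78, 2.46 and 1.94 CPM in replicates 1 to 8. The 4 mice of replicates 1, 2, 5 and 6 lay above every mouse at 0 min, and the other 4 lay within the range of 0 min. The distance between the highest mouse (94 counts, 6.28 to 9.52 CPM by the exact Poisson interval) and the lowest (13 counts, 0.598 to 1.92 CPM) is larger than counting error.

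Acot1 averaged 1.71 ± 0.529 CPM (SD, n = 8) in the 0 min mice, 1.27 ± 0.518 CPM in the 45 min mice and 3.51 ± 2.33 CPM in the 24 h mice. Over time it changed with an adjusted p of 0.00716 (edgeR's quasi-likelihood test, Benjamini-Hochberg adjustment over the 8940 transcripts). That test called 8.91% of all transcripts. Acot1 rose from 45 min to 24 h by 1.47 on the log2 scale (SE, the standard error, 0.33, 2.76-fold, adjusted p = 0.00525 by edgeR), a comparison in which 9.09% of transcripts were called, 4.59% as higher and 4.51% as lower. Between 0 min and 24 h it rose by 1.03 (SE 0.32, 2.05-fold, adjusted p = 0.0474 by edgeR), where 7.68% were called, 4.44% as higher and 3.24% as lower. This last call stood close to the threshold. It was lost with limma-voom (0.82, adjusted p = 0.134) and without replicate 6 at 24 h (0.70, adjusted p = 0.199), and 19 of the 24 fits with a single mouse left out lost it. Between 0 min and 45 min the log2 fold change was -0.43 (SE 0.34, adjusted p = 0.952 by edgeR), with 0.727% of transcripts called, 0.481% as higher and 0.246% as lower.

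Cpt1a was well covered, with 412 to 1690 counts per mouse. At 0 min it was at 71.5, 91.4, 68.4, 82.9, 75.2, 75.5, 80.2 and 90.7 CPM in replicates 1 to 8. At 45 min it was at 104.6, 93.8, 62.4, 56.8, 67.9, 79.1, 63.0 and 46.1 CPM, with 5 mice below and 2 mice above the whole range of 0 min. The SD was 8.45 CPM at 0 min and 19.5 CPM at 45 min.

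At 24 h Cpt1a was at 121.7, 113.5, 95.7, 60.8, 98.0, 116.8, 98.8 and 77.9 CPM. Of these mice 6 lay above the highest mouse at 0 min, replicate 8 lay within that range and replicate 4 below it. Cpt1a averaged 79.5 ± 8.45 CPM (SD, n = 8) in the 0 min mice, 71.7 ± 19.5 CPM in the 45 min mice and 97.9 ± 20.5 CPM in the 24 h mice. In neither gene did the mice of any pair of time points separate completely, as they did in 0.302% of transcripts between 0 min and 45 min, 1.64% between 0 min and 24 h and 1.4% between 45 min and 24 h.

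No comparison of Cpt1a passed the threshold. Its log2 fold change was 0.30 between 0 min and 24 h (SE 0.16, adjusted p = 0.303 by edgeR), with a 95% interval from -0.02 to 0.62. It was 0.45 between 45 min and 24 h (SE 0.16, adjusted p = 0.0710 by edgeR) and -0.15 between 0 min and 45 min (SE 0.16, adjusted p = 0.952 by edgeR). Over time the adjusted p was 0.146 by edgeR and 0.139 by DESeq2. The study had listed Cpt1a among its 1209 transcripts changing over time (FDR under 0.05, likelihood ratio test of DESeq2). That call was not reproduced here, and the cause of the difference was not tested. Without replicate 4 at 24 h, the value from 45 min to 24 h was 0.49 (adjusted p = 0.0182) and the adjusted p over time was 0.0422. Without replicate 1 at 45 min they were 0.52 (adjusted p = 0.0204) and 0.0459. That library held the largest share of the transcript uc012ath.2 (35.2% of its counts).

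**Figure D1:**
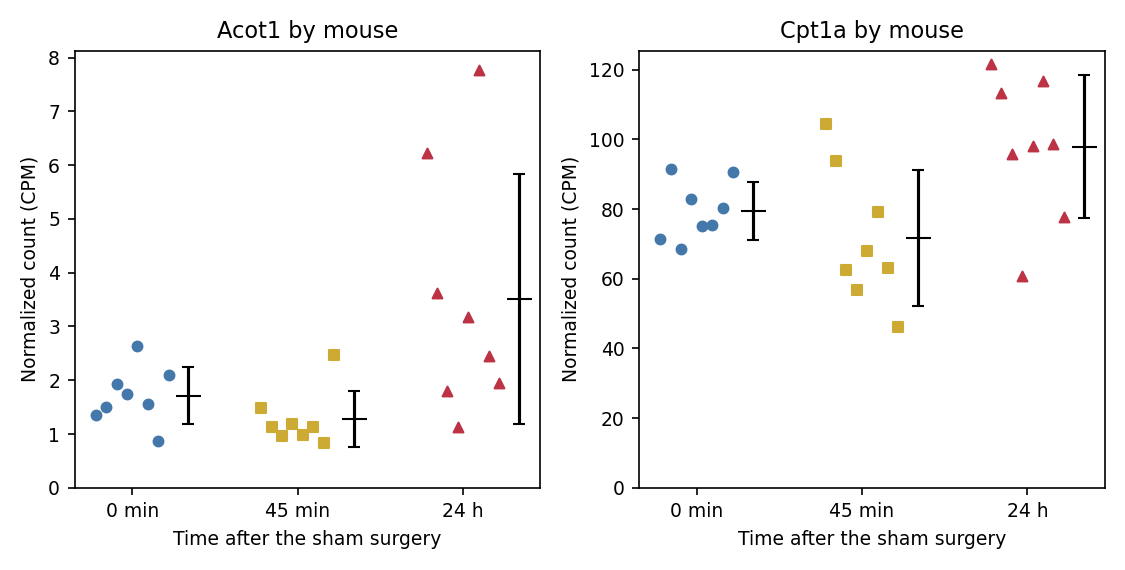
Normalized counts (CPM, y axis from 0) of Acot1 (left) and Cpt1a (right) in each mouse, with 8 mice per time point in the order of their replicate numbers. Black marks show the mean ± SD of a time point. In Acot1, 4 of the 8 mice at 24 h stand above all mice at 0 min. In Cpt1a, 6 of the 8 do, and replicate 4 at 24 h lies below the 0 min range.

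To ask whether both genes moved by the same amount, the log2 ratio of Acot1 to Cpt1a was taken within each mouse as the difference of log2(CPM + 0.5), in which the added 0.5 shrinks the changes of a low gene such as Acot1. The mean log2 ratio was -5.21 ± 0.39 (SD, n = 8) in the 0 min mice, -5.35 ± 0.60 in the 45 min mice and -4.78 ± 0.53 in the 24 h mice. The differences were 0.42 from 0 min to 24 h (two-sided exact permutation, p = 0.0928, or 0.139 when adjusted for 3 comparisons), 0.56 from 45 min to 24 h (exact permutation test, p = 0.0692, adjusted p = 0.139) and -0.14 from 0 min to 45 min (exact permutation test, p = 0.608). These sizes moved with the value added. With 0.1 in place of 0.5 the differences were 0.53 from 0 min to 24 h (adjusted p = 0.120 by the exact permutation test) and 0.75 from 45 min to 24 h (adjusted p = 0.113), and with 2 both were 0.21 (adjusted p = 0.493). Without replicate 8 at 45 min, the difference from 45 min to 24 h was 0.76 and passed the threshold (adjusted p = 0.00466 by the exact permutation test). With all mice, a rise that passed the threshold in Acot1 and not in Cpt1a was not shown to differ between them. The exact test covers 12870 splits of the mice, and the smallest p it can give is 0.000155.

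Across the 8 mice of 24 h, those high in Acot1 were high in Cpt1a. Pearson's r of log2(CPM + 0.5) was 0.866 (exact permutation test, n = 8, p = 0.00464, adjusted over 12 relations p = 0.0186) and Spearman's rho was 0.929 (exact permutation test, p = 0.00223, adjusted p = 0.0134). Replicates 1, 2 and 6 led in both genes, and replicate 4 was last in both. Without replicates 1 and 6, farthest from the median in Acot1, r was 0.892, and with each mouse left out in turn it ran from 0.832 to 0.911.

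At the earlier times no such relation was seen. Pearson's r was -0.047 at 0 min (exact permutation test, n = 8, p = 0.912) and -0.289 at 45 min (exact permutation test, n = 8, p = 0.50002), and without replicates 7 and 8 at 45 min it was 0.652. Spearman's rho was -0.095 and -0.048. Whether the relation at 24 h differs from those at 0 min and 45 min was not tested. Over all 24 mice r was 0.591 (permutation test, p = 0.00213, adjusted p = 0.0128) and rho was 0.550 (adjusted p = 0.0238 by the permutation test). This pooled value did not hold without replicates 1 and 6 at 24 h (r = 0.390, permutation p = 0.0724) or with values centred within each time point (r = 0.374, permutation p = 0.0724).

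**Figure D2:**
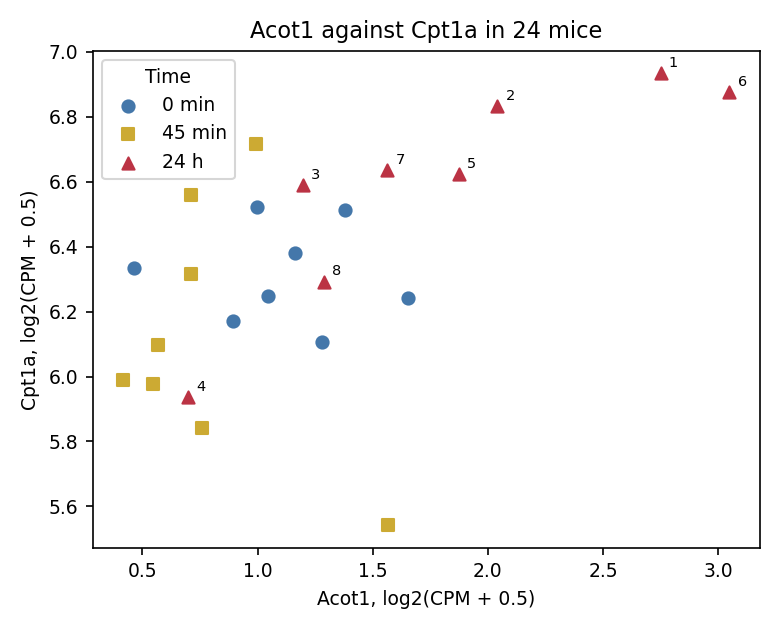
Acot1 (x axis) against Cpt1a (y axis), both as log2(CPM + 0.5), with 1 point per mouse and replicate numbers beside the 8 mice of 24 h. The 24 h mice run from replicate 4 at the lower left to replicates 1 and 6 at the upper right (r = 0.866), while the mice of 0 min and 45 min form no such line.

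The number of transcripts detected in a library moved with Cpt1a. Over the 24 mice r was 0.605 (permutation test, p = 0.00195, adjusted p = 0.0128) and rho was 0.652 (adjusted p = 0.0107 by the permutation test), and without replicates 6 and 8 at 45 min r was 0.523. Within 0 min r was 0.054, within 45 min 0.530 and within 24 h 0.835 (adjusted p = 0.0408 by the exact permutation test). Spearman's rho within 24 h was 0.587 (adjusted p = 0.268 by the exact permutation test). The value of r at 24 h rested on replicates 4 and 8, since without both r was -0.054. It was 0.542 without replicate 4 alone and 0.817 without replicate 8 alone.

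For Acot1, r with the number of transcripts detected was 0.311 over the 24 mice (permutation test, p = 0.138). It was -0.068 within 0 min, -0.396 within 45 min and 0.582 within 24 h (exact permutation test, p = 0.127). As in Cpt1a, the value at 24 h was lost without replicates 4 and 8 (r = -0.071). A difference between both genes in this relation was not tested. Without replicates 4 and 8 at 24 h, the relation of Acot1 to Cpt1a at that time was as large as with them (r = 0.891, n = 6, a value chosen after seeing the data). Whether the number of transcripts detected had a part in the relation of both genes was not tested. With the 5 libraries of fewest transcripts detected left out, an alternative also chosen after seeing the data, the log2 fold change of Acot1 from 0 min to 24 h was 1.04 (adjusted p = 0.0576 by edgeR).

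**Figure D3:**
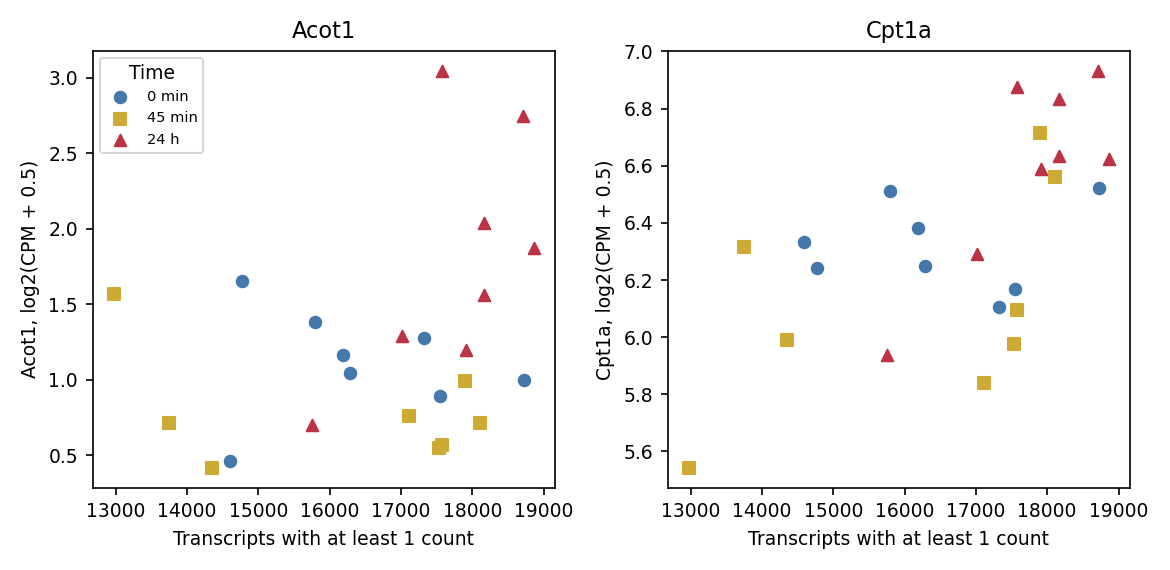
Acot1 (left) and Cpt1a (right), as log2(CPM + 0.5) on the y axes, against the number of transcripts with at least 1 count in the library (x axes), with 1 point per mouse coloured by time point. Cpt1a is lowest in the 45 min library with the fewest transcripts detected, and replicate 4 is the 24 h mouse with the lowest value in both genes.

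The genes most like Acot1 were looked for among 1095 other tested transcripts with a symbol, by Pearson's r of log2(CPM + 0.5) over the 24 mice. Tacc2, a protein of the centrosome, came first (r = 0.754, rho = 0.476), before Pbld1 (r = 0.754, rho = 0.598) and Vwa3a (r = 0.742, rho = 0.520). Cpt1a was 41st. Among all tested transcripts, with or without a symbol, Tacc2 was 3rd and Cpt1a 63rd. For Cpt1a, the most like were Masp1 (r = 0.803), a protease of the lectin pathway of complement, Zbtb1 (r = 0.786), a zinc finger protein, and again Tacc2 (r = 0.782). Acot1 was 87th, and 377th among all tested transcripts. Within 24 h, r with Acot1 was 0.951 for Tacc2, 0.892 for Pbld1, 0.843 for Masp1 and 0.693 for Zbtb1, beside 0.866 for Cpt1a. With Cpt1a it was 0.838 for Tacc2, 0.832 for Masp1, 0.824 for Zbtb1 and 0.602 for Pbld1. An r of the size seen between Acot1 and Cpt1a at 24 h was thus not particular to this pair. These values describe the libraries, since the mice share time points and the study listed these transcripts for their change over time.

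Of a list of 31 known PPAR alpha targets, 5 had a symbol in the study's tables, Acot1 and Cpt1a included, and all 5 were tested. At 24 h against 0 min, 4 of the 5 rose and none fell, where 4.44% of all transcripts rose. Their median log2 fold change was 0.64, and that of all transcripts tested was 0.0033. These 5 are no sample of the pathway, because the study listed them for a change over time in the same mice, so their count is not independent evidence of a direction. The other 26 targets, Pdk4 and Cpt1b among them, were not analysed here.

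Plin2, which coats lipid droplets, rose from 71.3 ± 15.6 to 161 ± 56.7 CPM (SD, n = 8), by 1.17 on the log2 scale (SE 0.22, adjusted p = 0.000823 by edgeR), and 7 of the 8 mice at 24 h lay above all mice at 0 min. Plin4, of the same family, rose by 0.61 (SE 0.18, adjusted p = 0.0396). Cat, the catalase that clears the hydrogen peroxide made by peroxisomal oxidation, rose by 0.64 (SE 0.14, adjusted p = 0.00470), from 295 ± 26.8 to 459 ± 103 CPM. None of these 3 passed the threshold from 0 min to 45 min. Within 24 h, r with Acot1 was 0.459 for Plin2, 0.689 for Plin4 and 0.735 for Cat, and r with Cpt1a was 0.434, 0.785 and 0.582.

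**Figure D4:**
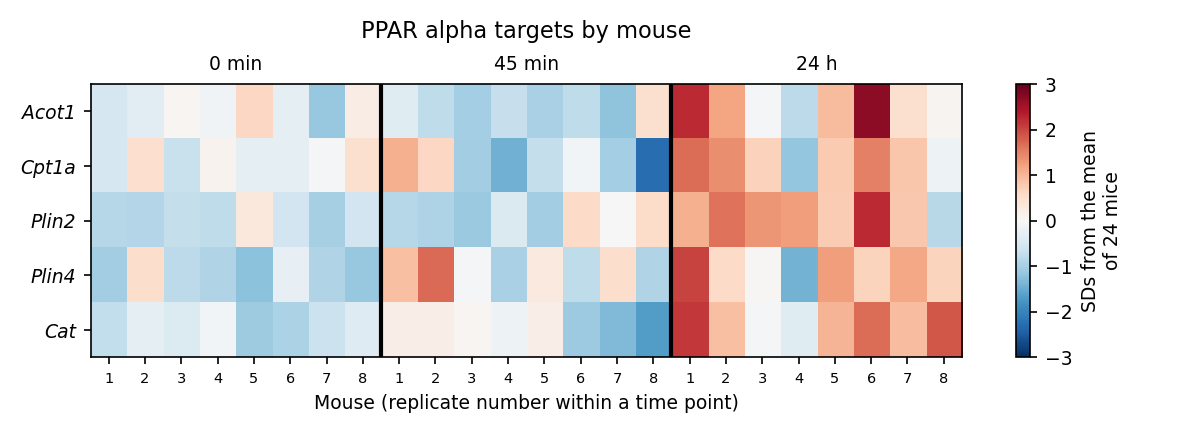
The 5 PPAR alpha targets with a symbol (rows) in the 24 mice (columns, by replicate number within each time point), as SDs of log2(CPM + 0.5) from the mean of the 24 mice, with red for higher and blue for lower. Replicates 1, 2, 5, 6 and 7 at 24 h are red in all rows. Replicate 4 at 24 h is blue in Acot1, Cpt1a, Plin4 and Cat and red in Plin2, and replicate 8 at 45 min is darkest blue in Cpt1a.

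Of the other thioesterases only Acot7 and Acot10 had a symbol, of 13 in the list. Acot10, a mitochondrial member, was at 8.98 ± 2.21 CPM (SD, n = 8) at 0 min and 12.8 ± 2.60 CPM at 24 h, a log2 fold change of 0.51 (adjusted p = 0.0553 by edgeR). Acot7, best known from brain, had a log2 fold change of -0.78 (SE 0.34, adjusted p = 0.195). In the carnitine shuttle, the only other gene with a symbol of 8 was Crat, which moves acetyl groups between carnitine and coenzyme A. It was at 334 ± 57.3 CPM at 0 min and 280 ± 35.8 CPM at 24 h, a log2 fold change of -0.25 (adjusted p = 0.333).

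The steps after the shuttle are beta oxidation, for which 3 of 24 genes had a symbol and none passed the threshold in any comparison. At 24 h against 0 min, the log2 fold change was -0.34 for Acad8, a dehydrogenase of valine breakdown from the same family as those of fatty acids (adjusted p = 0.0981), -0.08 for Hsd17b4, the peroxisomal bifunctional enzyme (adjusted p = 0.743), and -0.34 for Abcd2, a peroxisomal transporter of very long-chain acyl-CoA (adjusted p = 0.342 by edgeR).

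The opposite direction of flux, synthesis of fatty acids and triglycerides, had 8 of 17 genes with a symbol. By 24 h 2 of them had risen. Acaca, whose product malonyl-CoA is the inhibitor of carnitine palmitoyltransferase 1, rose by 0.62 (SE 0.16, adjusted p = 0.0140 by edgeR), from 6.06 ± 1.26 to 9.32 ± 1.70 CPM. Scd4, a desaturase of heart, rose by 1.14 (SE 0.34, adjusted p = 0.0382), with 3 of the 8 mice above all 0 min mice. Tecr, which completes the elongation of very long-chain fatty acids, fell by 0.79 (SE 0.24, adjusted p = 0.0408).

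The remaining 5 genes of synthesis did not pass the threshold at 24 h against 0 min by edgeR. The log2 fold change was 0.43 for Fasn (adjusted p = 0.0727), 0.54 for Scd1 (adjusted p = 0.0542), 0.63 for Agpat4 (adjusted p = 0.0504), -0.44 for Dgat2 (adjusted p = 0.0748) and -0.74 for Thrsp (adjusted p = 0.126). Cideb, a lipid droplet protein listed with Plin2 and Plin4, had a log2 fold change of -1.17 (adjusted p = 0.0532). It stood at 3 to 13 counts per mouse at 24 h.

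The pyruvate dehydrogenase complex decides whether pyruvate from glucose enters the citric acid cycle beside fatty acids. All 4 of its genes with a symbol, of 11, passed the threshold from 0 min to 24 h, where 7.68% of all transcripts did, and the study had listed these 4 for a change over time in the same mice. Pdk3, a kinase that switches the complex off, rose by 0.83 (SE 0.23, adjusted p = 0.0244 by edgeR). Pdp2, a phosphatase that switches it on, fell by 0.74 (SE 0.18, adjusted p = 0.00905), and the subunits Pdhb and Dlat fell by 0.50 (adjusted p = 0.0102) and 0.44 (adjusted p = 0.0346). Of the receptors and their partners, 3 of 15 had a symbol. Perm1, a muscle regulator of mitochondrial genes, fell by 0.39 (SE 0.12, adjusted p = 0.0417), while the log2 fold change was -0.18 for the receptor Ppard (adjusted p = 0.473) and 0.35 for Esrra (adjusted p = 0.418). Ppara itself was not analysed here.

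Over the whole list of 116 fatty acid genes other than Acot1 and Cpt1a, 25 had a symbol and were tested, and 11 passed the threshold from 0 min to 24 h, where 7.68% of all transcripts did. Of these 6 rose and 5 fell, and the median log2 fold change was -0.18. The count was 4 with no filter on low counts, 20 with 1 surrogate variable in the model and 6 to 15 with 1 mouse left out. Between 45 min and 24 h 12 passed, 5 rising and 7 falling. Between 0 min and 45 min none passed by edgeR or DESeq2, and 3 had an unadjusted p under 0.05 in edgeR. Since the study had listed the genes for their change over time, nothing is read from these counts against the shares over all transcripts.

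**Figure D5:**
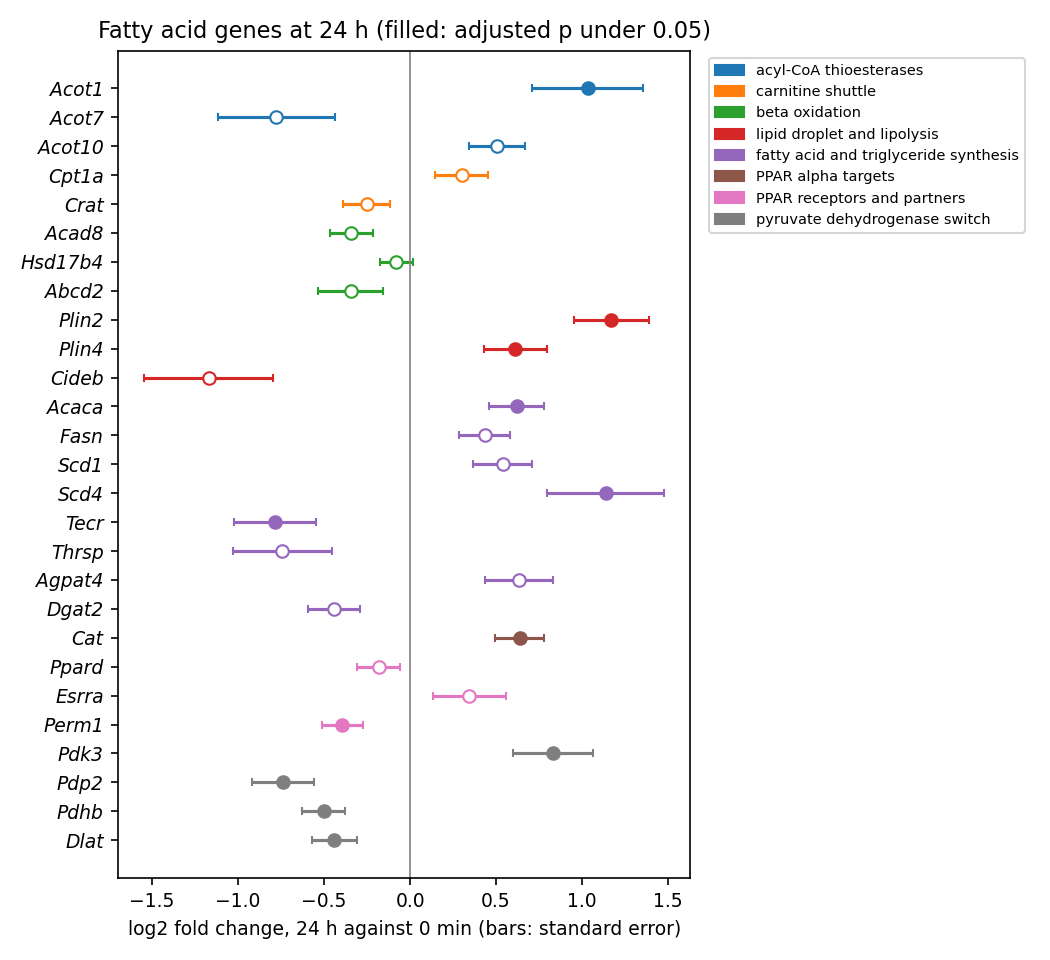
Log2 fold change from 0 min to 24 h (x axis, bars show the standard error, SE) of Acot1, Cpt1a and the 25 other fatty acid genes with a symbol, coloured by role. Filled points passed the threshold of 0.05 after adjustment in edgeR. Acot1, Plin2, Plin4, Cat, Acaca, Scd4 and Pdk3 are filled on the right, and Tecr, Perm1, Pdp2, Pdhb and Dlat on the left. Cpt1a is open at 0.30.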

How the data were processed

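The left ventricular myocardium of 24 mice, 8 per time point, was sequenced as polyA RNA with a directional kit (single-end, 76 bases). The authors deposited raw counts per UCSC transcript, without normalization. They trimmed reads with cutadapt 1.9.1, mapped them to mm10 with TopHat 2.1.0 and Bowtie 2.2.9 and counted them with htseq-count 0.6.0, per the study's methods and the submitters' processing notes. The counting mode, its strand setting and the release of the transcripts counted are not given in the sources used here, nor are the surgeon and library pool of each mouse in the labels, so no batch was modelled.

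Groups were taken from the labels. Every column of the deposited counts belonged to 1 sample. The main analysis used edgeR 4.0.16 under R 4.3.3, with filterByExpr by time (minimum of 10 counts, 15 in total), TMM scaling and quasi-likelihood F tests of time, the only factor, over all 24 mice. Pairs of times were tested as single contrasts, with Benjamini-Hochberg adjustment over the 8940 transcripts tested and a threshold of 0.05. Standard errors were derived from the F statistics (log2 fold change over √F), and 95% intervals from the standard errors. Ratios and correlations used log2(CPM + 0.5) and permutation tests, exact within a time point and with 100000 permutations over 24 mice, two-sided. The tests were checked on simulated data. Alternatives used DESeq2 1.42.0, limma 3.58.1, sva 3.50.0, other scale factors, filters and covariates, and each mouse left out in turn.

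Symbols came only from the study's table of 1209 changing transcripts, of which 1097 were tested. Levels and tests of a gene are therefore those of single UCSC transcripts. Any other transcript of the same gene without a symbol in that table was not examined. The named genes are both genes, every listed gene with a symbol (1 gene of the lists is not reported here), and the 3 genes most like each. The lists were drawn up from general knowledge, and both genes and the lists were chosen with earlier results of these data known. Positions and transcripts are from GENCODE M21 and upstream sequences from RefSeq, both on GRCm38, the build of mm10. The UCSC identifiers were not matched to single GENCODE transcripts, so levels are not compared between genes. No library looked like a copy of another, with a chi-square over its degrees of freedom of 10.3 or more for the 84 pairs of mice from one time point. Totals of 9887957 to 14091629 counts set the precision, and Poisson intervals cover counting error only. Mice of a time point are separate animals.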

Additional observations from a re-analysis of the deposited data

Results flagged for a closer look

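On the scale of log2(CPM + 0.5), neither Acot1 nor Cpt1a had a mouse that stood apart from the other 7 of its time point by Dixon's criterion. On the scale of CPM, replicate 8 at 45 min did in Acot1 (2.46 CPM, the next at 1.49 CPM), with a gap of 0.598 of the group's range, above the critical value. On the log2 scale, among the 36 genes named, 12 of 108 groups of 8 mice had one, where chance flags about 1 in 20. At 0 min this was replicate 5 in Plin2 (108 CPM, the next at 72.1 CPM), in Mt2 (53.4 CPM, the next at 21.5 CPM) and in Thrsp (32.7 CPM, the next at 16.7 CPM). At 45 min it was replicate 6 in Crat (569 CPM) and in Cideb (4.67 CPM), replicate 8 in Pdk3 (5.48 CPM) and replicate 1 in Scd4 (37.4 CPM), each the highest of its group. At 24 h it was replicate 4, the lowest mouse in Esrra (5.88 CPM) and in Zbtb1 (0.691 CPM) and the highest in Scd1 (38.9 CPM). Replicate 6 was the highest in Dgat2 (533 CPM), and replicate 8 the lowest in Mt2 (75.998 CPM).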

How the results depend on the processing

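The rise of Acot1 from 45 min to 24 h passed the threshold in all 24 fits that left out 1 mouse (1.15 to 1.64) and in 11 of 11 other alternatives (1.27 to 1.61), and its change over time did in all 24 and in 10 of 10. Its rise from 0 min to 24 h lost the call with limma-voom (0.82, adjusted p = 0.134), no filter (1.01, adjusted p = 0.0819), transcripts detected as a covariate (1.06, adjusted p = 0.0506), only the mice of both times (1.03, adjusted p = 0.0703) and the 5 libraries with fewest transcripts left out (1.04, adjusted p = 0.0576), and the cause was not tested. Leaving out 1 mouse gave 0.70 to 1.13. With a minimum of 30 counts Acot1 was not tested. The replicate numbers did not pair the mice (13 of 24 correlations of same-numbered mice over 0.1, from -0.54 to 0.58, and 3 mice best with their own number). With the replicate number as a block the log2 fold change of Acot1 from 0 min to 24 h was 0.92 (adjusted p = 0.104). Cpt1a from 45 min to 24 h passed with 1 surrogate variable (0.37, adjusted p = 0.0472), and leaving out 1 mouse gave 0.36 to 0.52 there and an adjusted p of 0.0422 to 0.368 over time. From 0 min to 24 h no alternative called Cpt1a. The ratio of both genes from 45 min to 24 h passed without replicate 8 at 45 min (0.76, adjusted p = 0.00466), with 0.43 to 0.76 over single mice left out and 0.21 to 0.75 with 2 or 0.1 CPM added. The correlation over 24 mice was 0.513 to 0.740 with 1 mouse left out, 0.374 centred within time and 0.390 without the 2 mice farthest out.

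Of all transcripts, 797 changed over time, against 1208 by DESeq2, 1951 with 1 surrogate variable and 585 to 1291 with 1 mouse left out (1291 without replicate 4 at 24 h). From 0 min to 45 min 65 did, against 102 with transcripts detected as a covariate, 138 with 1 surrogate variable and 30 without the 5 libraries. From 0 min to 24 h 687 did, against 1044 with the covariate and 1791 with 1 surrogate variable. From 45 min to 24 h 813 did, against 1556 with 1 surrogate variable and 524 to 1668 with 1 mouse left out (replicates 2 and 4 at 24 h). Of the 25 other fatty acid genes, 1 surrogate variable called 23 over time (13 in the main model), 1 from 0 min to 45 min (0), 20 from 0 min to 24 h (11) and 19 from 45 min to 24 h (12). No filter called 4 and 6 for the last pair of comparisons. From 0 min to 24 h, transcripts detected as a covariate called 7, and leaving out 1 mouse called 6 to 15 (6 or 7 without replicate 1, 3, 4, 6 or 8 at 0 min or 1, 2, 5 or 7 at 24 h). Acot1 rested on 8 to 94 counts per mouse, which limits its precision.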

Other observations

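Genes known to follow fasting or glucocorticoids were read beside Acot1 and Cpt1a, from a list of 12 genes of which 5 had a symbol and 4 were tested. Ddit4, an inhibitor of mTOR signalling, rose from 69.3 ± 32.9 CPM at 0 min to 169 ± 54.2 CPM at 45 min (SD, n = 8), by 1.29 on the log2 scale (adjusted p = 0.0120 by edgeR), and fell by 1.61 from 45 min to 24 h (adjusted p = 0.000244). Mt2, a metallothionein that binds zinc, rose by 2.08 from 0 min to 45 min (adjusted p = 0.00333 by edgeR) and by 3.50 from 0 min to 24 h (adjusted p = 1.78e-06), when all 8 mice lay above all mice at 0 min, as in either direction 1.64% of transcripts did. Its relative Mt1 had log2 fold changes of 1.80 (adjusted p = 0.0988) and 0.81 (adjusted p = 0.400) on 4 to 104 counts. Glul, glutamine synthetase, rose by 0.63 from 0 min to 24 h (adjusted p = 0.00335 by edgeR). At 45 min all 8 mice lay above all mice at 0 min in Glul, which was so for 0.302% of transcripts in either direction, and its log2 fold change of 0.48 did not pass the threshold (adjusted p = 0.141). In time, Ddit4 and Mt2 had thus risen at 45 min, when Acot1 had a log2 fold change of -0.43 and Cpt1a of -0.15. Pik3ip1 was too low to be tested, at 1 to 23 counts per mouse.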
